A study of Mus musculus with 6 samples.

Results

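The cadherin and protocadherin genes were taken from the deposited mouse gene table as its protein-coding rows named Cdh followed by a number, or starting with Pcdh, with Cdh5 left out. They made up 92 of 48897 genes. They were measured by RNA sequencing of liver sinusoidal endothelial cells, the fenestrated lining of the liver's capillaries, which had been purified from C57BL/6 mice aged 7 to 8 weeks with magnetic beads against CD146 (encoded by Mcam). The PHx group (3 libraries, numbered 1, 3 and 4) came from mice on day 14 after partial hepatectomy, the surgical removal of part of the liver. The Sham group (3 libraries with the same numbers) came from mice of that age on day 14 after a sham operation. The labels name no transgene or other treatment in either group and do not say whether each library was a separate animal, so p-values measure the spread between these libraries, which may be technical.

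Cadherins are calcium-dependent adhesion proteins that bind their like on neighbouring cells. The classical ones, of type I (such as E-cadherin, Cdh1, and N-cadherin, Cdh2) and type II (such as Cdh11), are tied to actin through catenins. Protocadherins have more cadherin repeats and bind no beta-catenin; most stand as single genes of the delta group, or in the alpha, beta and gamma clusters, where alpha and gamma transcripts each join a variable first exon to shared constant exons. In the liver, E-cadherin is known from hepatocytes and bile duct cells, N-cadherin from hepatocytes and stellate cells, Cdh11 from fibroblast-like cells, and Cdh13 and Pcdh12 from endothelium.

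Summed counts per library lay between 38765116 and 51888481. Cell type markers known from the literature were summed in CPM, the usual counts-per-million scale, with library sizes corrected for composition. These lists were chosen with earlier results of these data known. The 8 sinusoidal endothelial markers summed to 16014, 20593 and 13542 CPM in PHx 1, 3 and 4, against 26302, 25204 and 23513 CPM in Sham 1, 3 and 4 and all 8 were detected in every library. None of the 8 was called lower. Of them 6 had a negative log2 fold change, including the most abundant, Stab1, Stab2 and Kdr (-0.78, -0.61 and -0.71). The other 2, Lyve1 and Mcam, were positive, at 0.16 and 0.11, with overlapping groups. The 9 stellate and fibroblast markers summed to between 4871 and 6378 CPM in PHx and between 1629 and 2074 CPM in Sham, with 6 of the 9 called higher in PHx. The 5 mesothelial markers summed to 104, 94.1 and 56.7 CPM in PHx, against 15.3, 12.4 and 25.8 CPM in Sham, with 2 of the 5 called higher. Over all 19033 tested genes, 0.846% were called higher in PHx and 0.0158% lower. Every stellate and mesothelial marker was detected in every library. Neutrophil markers were far apart within the groups, at 494, 19.7 and 3299 CPM in PHx and 239, 125 and 19.4 CPM in Sham for the sum of 4 genes. In bulk samples, fewer cells of a type and less RNA per cell cannot be told apart.

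Sequences around annotated starts are shown for 3 single protocadherins whose values are described further on. Pcdh18 and Pcdh7 stood higher in every PHx library than in any Sham library, and Pcdh17 was the most abundant delta protocadherin. Each window runs from 250 bases before to 50 bases after the annotated start, in RefSeq's GRCm38.p6, 5′ to 3′ on the gene's strand. The RefSeq table was matched by symbol. Its starts differ from the deposited gene rows for Pcdh7 and Pcdh18. The whole Pcdh7 window lies inside the deposited interval of that gene (57717596 to 58133236). The start used for Pcdh18 also lies inside its deposited interval (49743291 to 49757382). Capitals mark CAGGTG (an E-box), TGANTCA (an AP-1 motif) or CCAAT, on either strand, of which the last was chosen after the sequences had been seen.
Pcdh18, chr3:49757267-49757566, minus strand: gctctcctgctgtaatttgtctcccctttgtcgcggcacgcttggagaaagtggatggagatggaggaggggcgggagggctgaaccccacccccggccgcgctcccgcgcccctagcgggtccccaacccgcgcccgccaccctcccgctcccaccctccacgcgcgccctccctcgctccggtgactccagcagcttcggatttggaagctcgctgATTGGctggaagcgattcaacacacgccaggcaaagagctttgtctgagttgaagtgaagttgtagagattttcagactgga
Pcdh7, chr5:57717831-57718130, plus strand: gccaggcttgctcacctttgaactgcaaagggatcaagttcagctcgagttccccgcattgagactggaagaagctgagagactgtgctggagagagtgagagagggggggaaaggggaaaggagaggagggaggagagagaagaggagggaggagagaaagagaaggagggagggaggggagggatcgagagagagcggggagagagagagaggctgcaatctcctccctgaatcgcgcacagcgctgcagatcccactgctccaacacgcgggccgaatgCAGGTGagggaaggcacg
Pcdh17, chr14:84443313-84443612, plus strand: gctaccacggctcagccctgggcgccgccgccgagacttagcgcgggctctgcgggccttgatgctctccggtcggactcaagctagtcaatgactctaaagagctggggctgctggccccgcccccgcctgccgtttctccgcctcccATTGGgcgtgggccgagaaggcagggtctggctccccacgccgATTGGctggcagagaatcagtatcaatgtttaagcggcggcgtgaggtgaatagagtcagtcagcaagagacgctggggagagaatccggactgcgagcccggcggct
The Pcdh7 window held 1 CAGGTG, which began at base 283. The Pcdh18 window held 1 CCAAT on the opposite strand, from base 219, and the Pcdh17 window held 2, from bases 150 and 193, also on the opposite strand. None of the 3 windows held TGANTCA, and these motifs do not overlap each other. Among all 32851 windows of that length, 20.2% held CAGGTG, 37.4% held CCAAT and 7.81% held TGANTCA. The windows of Pcdh18, Pcdh7 and Pcdh17 held 23, 11 and 26 CpG steps, where the median window held 7. A match describes letters and shows no binding.

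The order of the members' levels was taken per length, from the deposited RPKM (counts divided by gene length and by the library's summed counts). The member with the highest level was Pcdh12, a protocadherin of endothelial cells, at a mean of 60.2 RPKM in PHx and 89.8 RPKM in Sham. Cdh13, T-cadherin, a membrane-anchored receptor without a cytoplasmic tail, followed at 56.4 RPKM in PHx and 60.0 RPKM in Sham. Their ranges over libraries overlapped in PHx, at 46.2 to 69.8 RPKM for Pcdh12 and 33.04 to 73.1 RPKM for Cdh13, but not in Sham, at 80.3 to 103.9 RPKM and 51.7 to 65.9 RPKM. For scale, Cdh5, the cadherin of endothelial junctions and no member here, averaged 405 RPKM in PHx and 499 RPKM in Sham.

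Next in order were Pcdhgc3, from the gamma cluster (20.6 RPKM in PHx and 20.0 RPKM in Sham), Pcdh17 (21.9 and 15.6 RPKM) and Cdh1 (13.6 and 14.6 RPKM). These neighbours overlapped in PHx, and of them Pcdhgc3 lay above both others in Sham. The first 5 genes held 66.7% of the RPKM summed over all members, and the first 24 held 89.7%. By this measure the bulk libraries, in which markers of other cell types were also detected, held a few abundant members and a long run of scarce ones.

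**Figure D1:**
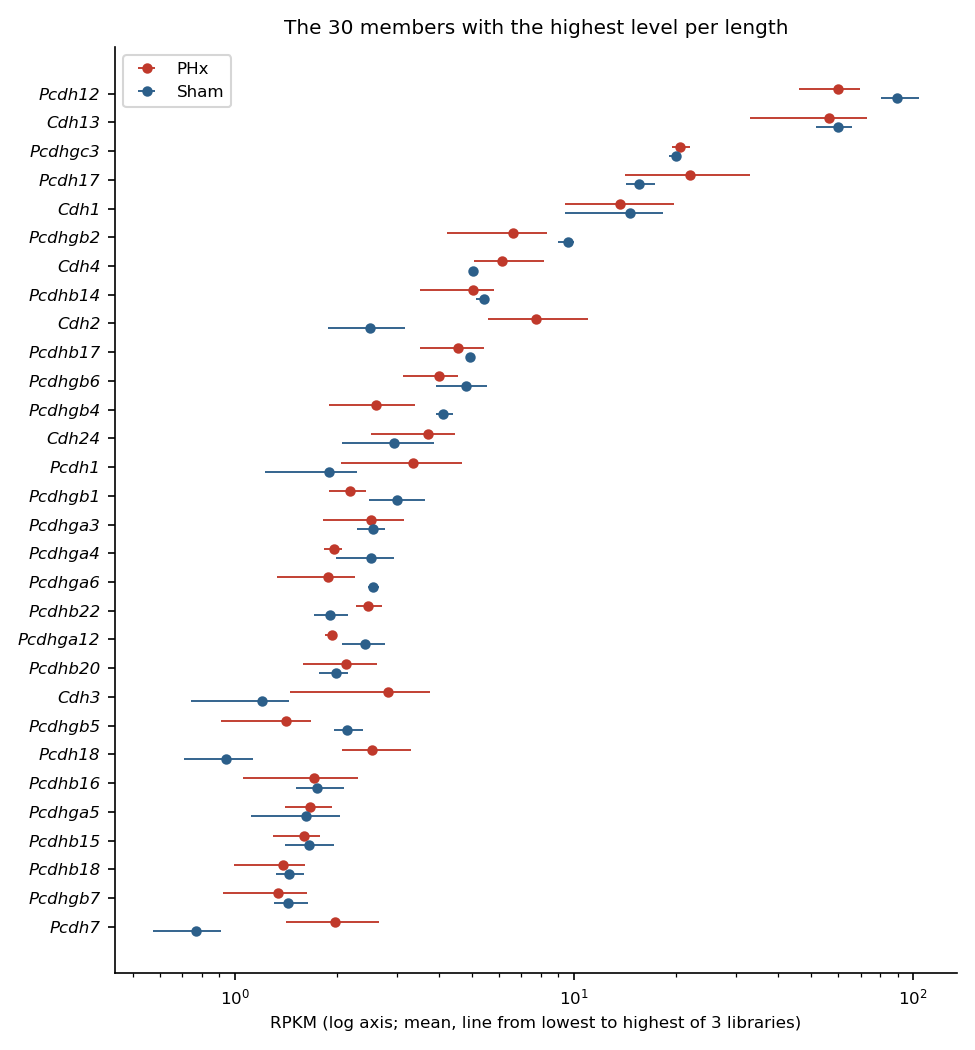
RPKM of the 30 members with the highest mean level, on a log axis, with PHx in red above Sham in blue; points are means and lines run from the lowest to the highest of 3 libraries. Pcdh12 and Cdh13 stand above all others. The lines of Cdh2, Cdh3, Pcdh18, Pcdh7 and Pcdhb22 do not overlap between the groups and lie higher in PHx. Those of Pcdh12, Pcdhgb1, Pcdhgb2, Pcdhgb4, Pcdhgb5, Pcdhga6 and Pcdhga12 do not overlap either and lie lower in PHx.

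PHx was compared with Sham by edgeR's quasi-likelihood test over 19033 genes, with Benjamini-Hochberg adjustment over all of them. 63 of the 92 members passed the filter on low counts and were tested. Of these 1 rose after PHx, Cdh11, which is 1.59% of the tested members beside 0.846% of all tested genes. None was lower at an adjusted p under 0.05, where the share of all tested genes was 0.0158%, although 6 had a negative fold change and an unadjusted p under 0.05, and 1 of these was called by DESeq2. In all, 12 members (19.0%) had an unadjusted p under 0.05 in edgeR, 6 in each direction, beside 12.7% of all tested genes. DESeq2 called 4 members higher (Cdh11, Cdh2, Pcdh18 and Pcdh7; 6.35% of the members, beside 4.02% of all genes it tested) and 1 lower (Pcdh12; 1.59% beside 0.703%).

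In 6 tested members (9.52%) every PHx library lay above every Sham library, beside 10.6% of all tested genes, so this share was close to the background. In 8 tested members (12.7%) every PHx library lay below, beside 9.96%. The median log2 fold change was -0.06 over the 63 tested members and 0.03 over all tested genes. The single cadherins and delta protocadherins lay mostly above 0 and the gamma cluster mostly below it, as the plot by class shows.

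**Figure D2:**
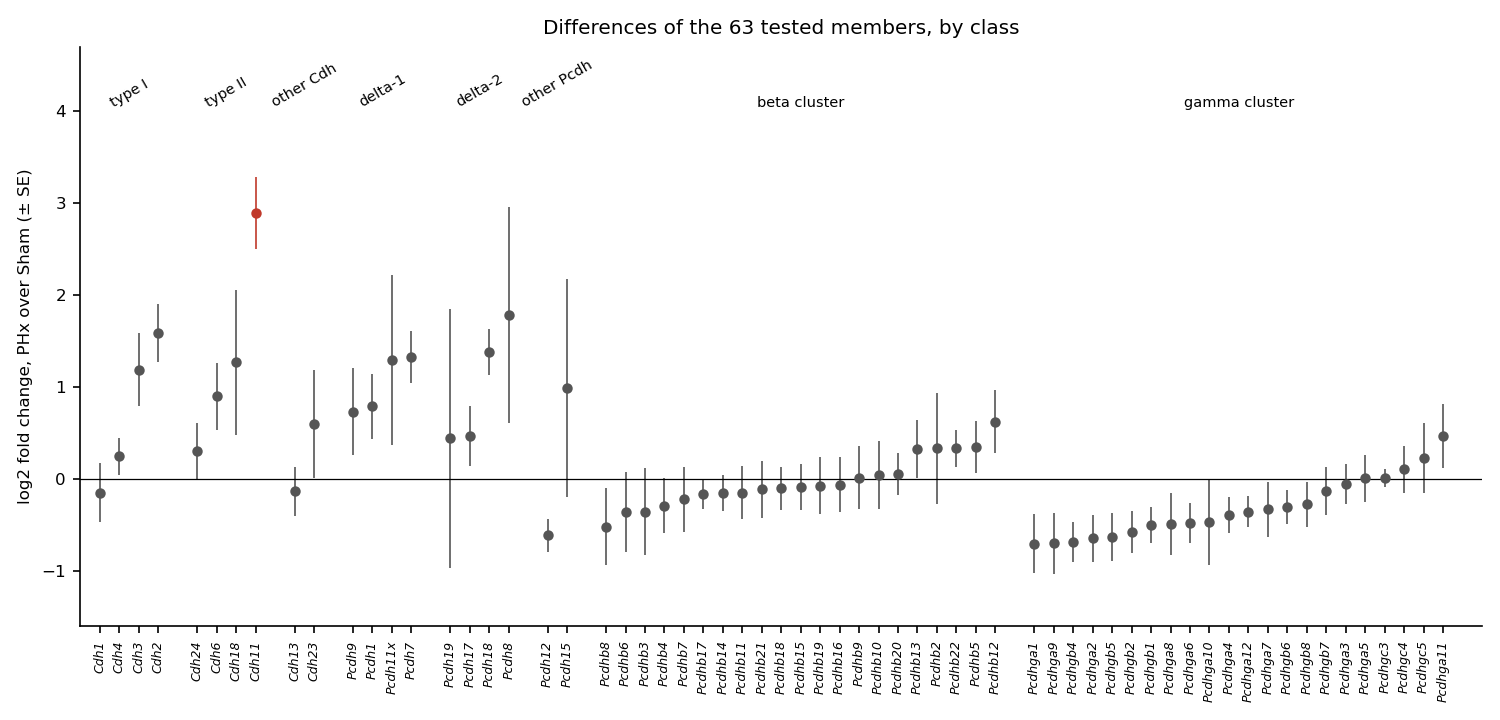
Log2 fold change of PHx over Sham, with its SE, for each of the 63 tested members, ordered within classes; red marks the member called by edgeR at an adjusted p under 0.05. Cdh11 stands highest at 2.89, and 17 of the 22 gamma genes lie below 0.

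Cdh11, a type II cadherin known from mesenchymal cells, lies on chromosome 8 (102632095 to 102785983, minus strand, mm10). It had 770, 637 and 279 counts in PHx 1, 3 and 4, against 44, 78 and 91 counts in Sham 1, 3 and 4. After scaling this was 14.9, 13.05 and 5.81 CPM in PHx and 1.17, 1.51 and 1.85 CPM in Sham. The lowest PHx library, PHx 4, still stood above the highest Sham library. Cdh11 rose by 2.89 ± 0.40 on the log2 scale (SE, n = 3 per group), with an edgeR adjusted p of 0.0260. DESeq2 gave an adjusted p of 1.29e-10 for the same gene.

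The edgeR call of Cdh11 depended on the libraries, while the log2 fold change stayed between 2.63 and 3.20 with each library left out in turn. The adjusted p was 0.00625 without PHx 4 and between 0.0593 and 0.163 without any other library, and it was 0.115 with limma-voom. Set against Cdh5, the endothelial junction gene, in each library, so as to compare libraries and not the levels of both genes, there were 9.24, 6.64 and 4.55 counts of Cdh11 per 1000 counts of Cdh5 in PHx, against 0.583, 0.704 and 0.929 in Sham. The mesothelial and the stellate marker sums were both higher in PHx. Within PHx the mesothelial sum was lowest in PHx 4, where Cdh11 was lowest, while the stellate sum was lowest in PHx 1. The stellate list was split, however. In PHx 1, 3 and 4, Col1a1 stood at 693, 1371 and 509 CPM and Col1a2 at 735, 1274 and 617 CPM, both lowest in PHx 4. The other genes of that list were lowest in PHx 1 or PHx 3. The part of either marker set in the Cdh11 result was not tested.

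All 4 tested type II genes had a positive log2 fold change, with a median of 1.08. Those beside Cdh11 were Cdh6, Cdh18 and Cdh24. Cdh6, K-cadherin, known from kidney development, stood at 12.8, 5.53 and 12.1 CPM in PHx, against 3.76, 6.53 and 6.03 CPM in Sham. PHx 3 lay among the Sham libraries, and the log2 fold change was 0.90 ± 0.36 (edgeR adjusted p = 0.370). Cdh24 averaged 13.5 ± 4.25 CPM in PHx and 11.0 ± 3.45 CPM in Sham (SD, n = 3 each). Cdh18, a cadherin known from brain, was scarce, at 2.41, 1.99 and 0.333 CPM in PHx and 1.14, 0.290 and 0.549 CPM in Sham. These 3 genes had edgeR adjusted p-values of 0.370, 0.711 and 0.534, in the order Cdh6, Cdh24 and Cdh18. The remaining 8 type II genes did not pass the filter.

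**Figure D3:**
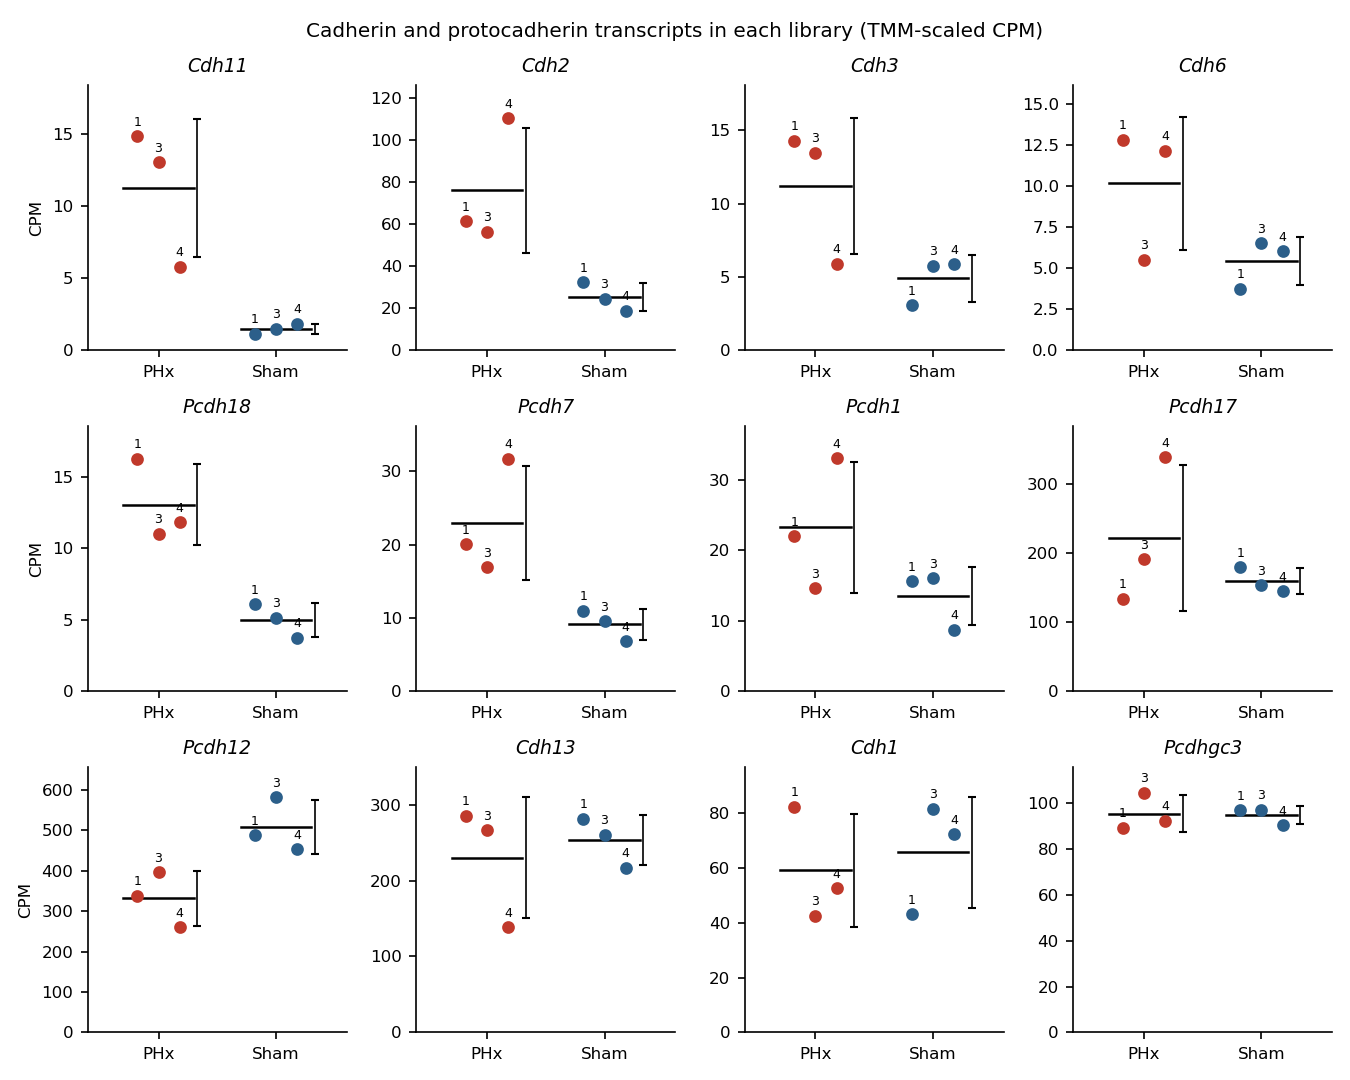
Scaled CPM of 12 members in each library, with PHx in red left of Sham in blue; numbers are library numbers, horizontal lines are means and bars beside them are SD over 3 libraries. Cdh11, Cdh2, Cdh3, Pcdh18 and Pcdh7 are higher in every PHx library than in any Sham library and Pcdh12 is lower in every PHx library.

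Among the type I cadherins, Cdh2 (N-cadherin, chromosome 18, 16588877 to 16809246) was the one whose values differed most between the groups. It stood at 61.6, 56.5 and 111 CPM in PHx, against 32.6, 24.7 and 19.0 CPM in Sham. All PHx libraries lay above all Sham libraries, and PHx 4 was the highest. The log2 fold change was 1.59 ± 0.32, and the edgeR adjusted p was 0.101, while DESeq2 called Cdh2 with an adjusted p of 3.01e-05. The limma-voom adjusted p was 0.0927. With a library left out the log2 fold change lay between 1.22 and 1.78, the lowest being without PHx 4. The stellate and mesothelial marker sums given above were likewise higher in every PHx library, and their part in the Cdh2 values was not tested.

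Cdh1 (E-cadherin, chromosome 8, 106603350 to 106670247) overlapped between the groups, at 82.2, 42.5 and 52.5 CPM in PHx and 43.0, 81.5 and 72.2 CPM in Sham. Its log2 fold change was -0.15 ± 0.32 (edgeR adjusted p = 0.873) and turned positive without PHx 3 or without Sham 3, at 0.03 and 0.01. The 5 cholangiocyte markers, which are bile duct genes, summed to 643, 345 and 477 CPM in PHx and 321, 563 and 539 CPM in Sham. The 5 hepatocyte markers summed to 1063, 543 and 1006 CPM in PHx and 922, 1407 and 1291 CPM in Sham. Cdh1 and both sums were highest in PHx 1 within PHx and lowest in Sham 1 within Sham. The relation of Cdh1 to either sum was not tested. Per length, Cdh2 stood at 0.333, 0.592 and 0.937 times Cdh1 in PHx, against 0.337, 0.134 and 0.117 times in Sham. PHx 1 and Sham 1 were close in this ratio, so the groups overlapped.

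Cdh3, P-cadherin, an epithelial cadherin whose gene lies beside Cdh1 on chromosome 8 (106510852 to 106556911), stood at 14.3, 13.5 and 5.92 CPM in PHx, against 3.07, 5.78 and 5.89 CPM in Sham. PHx 4 exceeded Sham 4 only slightly, and the log2 fold change was 1.19 ± 0.40 (edgeR adjusted p = 0.291). Cdh4, R-cadherin, averaged 42.0 ± 12.9 CPM in PHx and 35.4 ± 0.596 CPM in Sham (SD, n = 3 each). Its PHx value rested on PHx 4, at 56.9 CPM, and the log2 fold change of 0.25 ± 0.20 became -0.03 without that library. Cdh15, the muscle cadherin and the fifth type I gene, had at most 9 counts in any library and was not tested.

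Cdh13 (T-cadherin, chromosome 8, 118140017 to 119324929) stood at 285, 266 and 139 CPM in PHx, against 282, 260 and 217 CPM in Sham. PHx 4 lay below all Sham libraries, PHx 1 just above them and PHx 3 among them. The log2 fold change was -0.14 ± 0.27 (edgeR adjusted p = 0.860), and 0.12 without PHx 4. Cdh23, a long cadherin of the inner ear's hair cells, averaged 1.49 ± 0.774 CPM in PHx and 0.986 ± 0.559 CPM in Sham (SD, n = 3 each). Cdh16, Cdh17 and Cdh26 had at most 16 counts in any library.

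The delta protocadherins were all on the positive side where tested. The 8 tested genes had a median log2 fold change of 1.04, and none was called by edgeR. Without PHx 3, Sham 3 or Sham 4, 7 of the 8 were positive. The stellate and fibroblast marker sum (4871 to 6378 CPM in PHx and 1629 to 2074 CPM in Sham) and the mesothelial sum (56.7 to 104 CPM in PHx and 12.4 to 25.8 CPM in Sham) were higher in PHx as well, and their part in the values of these genes was not tested. Pcdh18 (chromosome 3, 49743291 to 49757382, minus strand), a delta-2 protocadherin, stood at 16.3, 11.0 and 11.8 CPM in PHx, against 6.10, 5.16 and 3.76 CPM in Sham. The groups did not overlap, the log2 fold change was 1.38 ± 0.25, and the edgeR adjusted p was 0.0615. It passed at an adjusted p of 0.0498 among genes with at least 5 CPM in 3 libraries, at 0.00670 with no filter on low counts and at 3.97e-05 in DESeq2. Pcdh18 did not pass with limma-voom (adjusted p = 0.0824). In edgeR it did not pass with any library left out (adjusted p from 0.0721 to 0.281) or with upper-quartile factors (0.0646).

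Pcdh7 (chromosome 5, 57717596 to 58133236), a delta-1 protocadherin, stood at 20.1, 16.9 and 31.7 CPM in PHx, against 11.0, 9.59 and 6.83 CPM in Sham. Here too the groups did not overlap, and PHx 4 was the highest library. The log2 fold change was 1.33 ± 0.28 with an edgeR adjusted p of 0.0928, and DESeq2 gave an adjusted p of 0.000631. The limma-voom adjusted p was 0.156. Pcdh1, a delta-1 protocadherin of epithelium and endothelium (chromosome 18, 38189454 to 38212048), stood at 22.0, 14.6 and 33.04 CPM in PHx and 15.6, 16.1 and 8.72 CPM in Sham. PHx 3 lay below Sham 1 and Sham 3, and the log2 fold change was 0.79 ± 0.35 (edgeR adjusted p = 0.413).

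Pcdh17 (chromosome 14, 84443563 to 84537565), a delta-2 protocadherin known from nervous tissue, was the most abundant of the group. It stood at 134, 191 and 338 CPM in PHx, against 180, 154 and 145 CPM in Sham. PHx 1 lay below all Sham libraries, and PHx 3 and PHx 4 above them, so the groups overlapped. The log2 fold change of 0.47 ± 0.33 (edgeR adjusted p = 0.580) became 0.03 without PHx 4. Pcdh9 averaged 2.49 ± 1.25 CPM in PHx and 1.501 ± 0.353 CPM in Sham (SD, n = 3 each), with an edgeR adjusted p of 0.547.

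The scarce delta genes varied by library. Pcdh19, a delta-2 protocadherin on chromosome X, had 28, 40 and 5 counts in PHx and 38, 5 and 0 counts in Sham. Its log2 fold change of 0.44 ± 1.41 changed sign when some libraries were left out. Pcdh8 and Pcdh11x were below 1 CPM in every library. Pcdh10 had 1, 25 and 2 counts in PHx and 0, 0 and 1 counts in Sham, and was not tested.

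**Figure D4:**
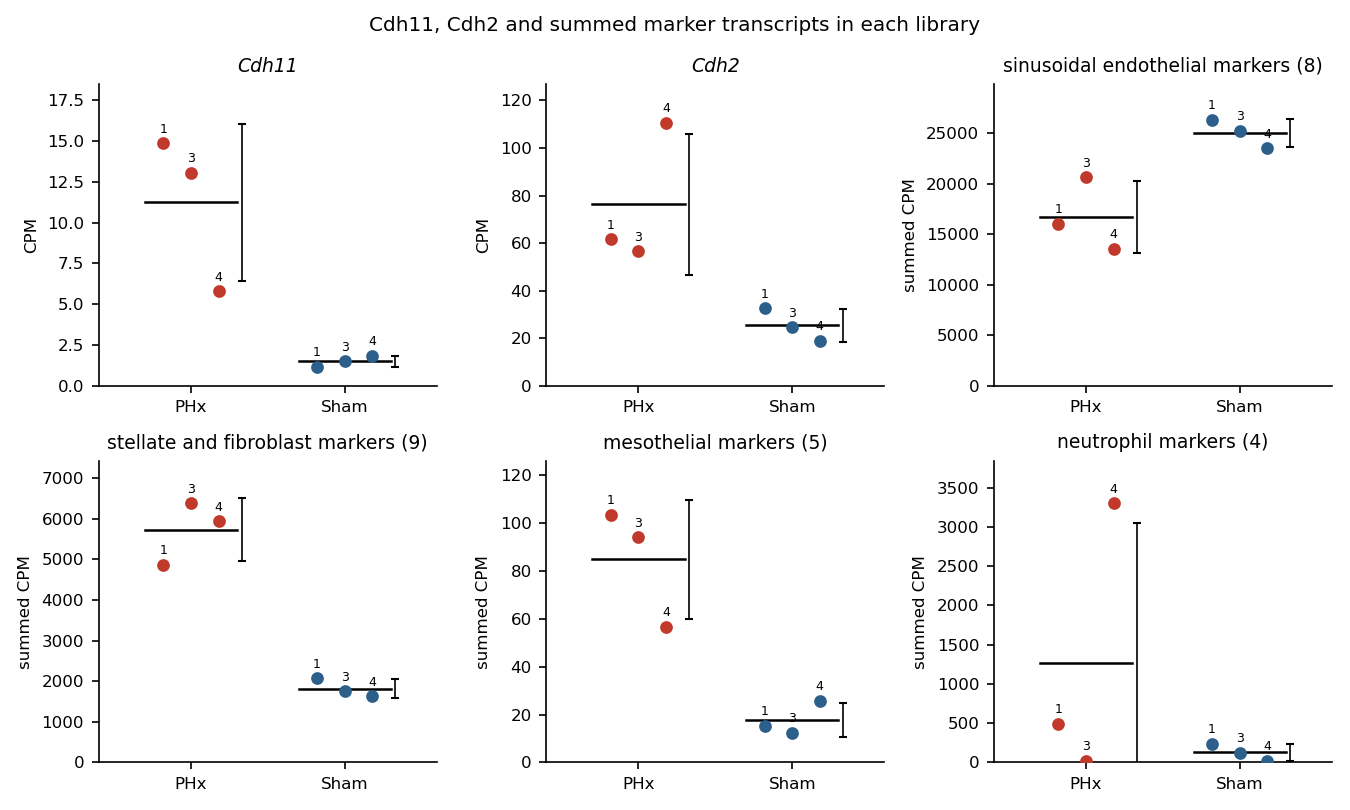
Scaled CPM of Cdh11 and Cdh2, and summed CPM of 8 sinusoidal endothelial, 9 stellate and fibroblast, 5 mesothelial and 4 neutrophil markers in each library, with PHx in red left of Sham in blue; lines are means and bars SD over 3 libraries, with the neutrophil PHx bar ending at 0. The endothelial sum is lower, and the stellate and mesothelial sums are higher, in every PHx library than in any Sham library, while the neutrophil sum reaches 3299 CPM in PHx 4.

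Pcdh12 (chromosome 18, 38267092 to 38284401, minus strand) stood at 339, 396 and 261 CPM in PHx, against 488, 582 and 453 CPM in Sham. Every PHx library lay below every Sham library. The log2 fold change was -0.61 ± 0.18 with an edgeR adjusted p of 0.227, and the adjusted p was 0.0465 in DESeq2. Per length, Pcdh12 stood at 15.2%, 14.6% and 14.8% of Cdh5 in PHx, against 17.7%, 19.7% and 16.5% in Sham. These ratios did not overlap either, while Cdh5 itself had a log2 fold change of -0.34 ± 0.18 (edgeR adjusted p = 0.488). The sum of the 8 sinusoidal endothelial markers was also lower in every PHx library. Of these markers 6 had a negative log2 fold change, including Stab1, Kdr and Stab2 at -0.78, -0.71 and -0.61, and 2 a positive one. The part of that sum in the Pcdh12 values was not tested. The row of Rnf14, a gene on the opposite strand, overlaps that of Pcdh12; it held 19898 counts over all libraries, beside 120274 for Pcdh12, and had a log2 fold change of -0.09. The use of strand in counting is not given in the sources used here. Pcdh15, a hair-cell protocadherin, reached at most 1.02 CPM in any library.

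The clustered protocadherins lie side by side on chromosome 18, and their 58 genes were used unequally. The 14 alpha genes held 1, 1 and 5 counts in all in PHx, against 10, 3 and 12 counts in Sham, and 9 of them had a count of 0 in every library. With counting error alone considered, a listed 0 leaves room for 3 counts, which is 0.0580 to 0.0795 CPM depending on the library. The beta genes summed to 109, 109 and 79.6 CPM in PHx, against 113, 97.7 and 98.5 CPM in Sham. The gamma genes summed to 249, 289 and 218 CPM in PHx, against 326, 300.4 and 281 CPM in Sham. The gamma sums overlapped between PHx 3 and Sham 4 only.

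How shared exons were counted bears on these rows. In GENCODE M21 (GRCm38), an exonic base was taken as shared when a large part of a cluster's genes held it. The 13 annotated alpha genes had 2860 such bases, the 22 gamma genes 2119 and the 22 beta genes 0. Bases held in common by fewer genes of a cluster were not counted. The lowest gamma row, Pcdhga10, held between 22 and 46 counts per library and the highest, Pcdhgc3, between 3661 and 5107. A read count added in full to every gamma row could therefore be at most 22 to 46 per library. Whether reads in shared exons were dropped or divided is not given in the sources used here, and beta genes resemble each other closely, so the values of single clustered genes are uncertain.

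**Figure D5:**
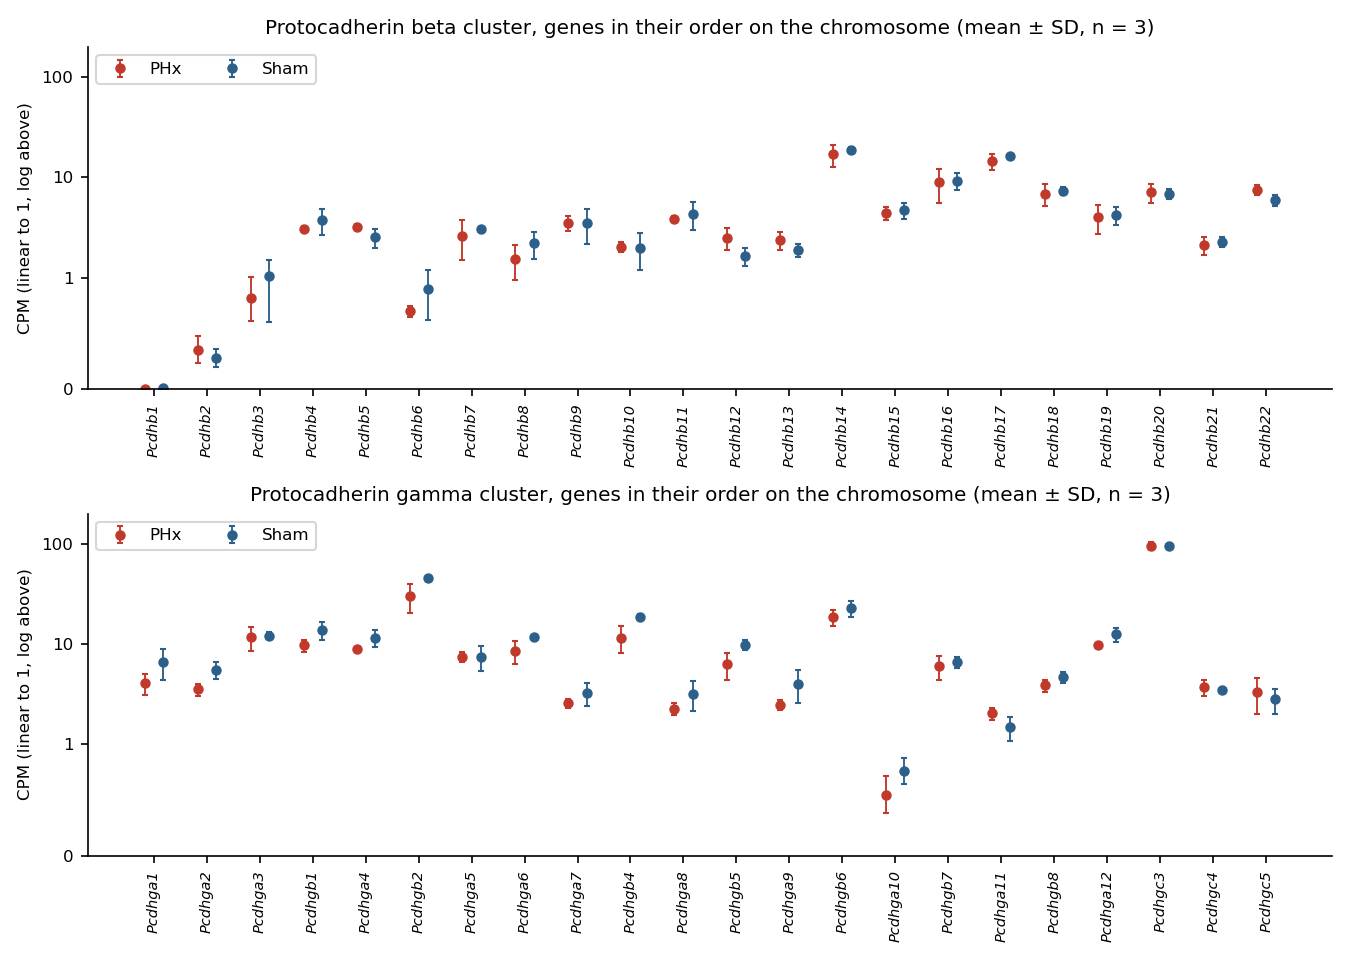
Mean scaled CPM ± SD over 3 libraries of the 22 beta and 22 gamma protocadherins, in their order along the chromosome, with PHx in red left of Sham in blue; the axis is linear up to 1 and logarithmic above. Pcdhgc3 stands near 95 CPM in both groups, and most other gamma genes lie lower in PHx.

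The gamma cluster has 3 subfamilies, A, B and C. The 7 B genes were all negative (median log2 fold change -0.50), and 4 of them (57.1%) had every PHx library below every Sham library. Without PHx 4, 6 of the 7 were negative. Relative to Cdh5 the summed B counts were 5.57%, 5.38% and 4.96% in PHx and 6.59%, 5.49% and 5.79% in Sham. These ratios overlapped between the groups. Of the 12 A genes 10 were negative, with a median of -0.43, and the 3 C genes were all positive, with a median of 0.11. Over the cluster 17 of 22 were negative and 7 (31.8%) had every PHx library lower, beside the 9.96% given above for all tested genes. Gamma genes share exons and their counting is not known, so the 22 rows are not separate observations to set against that share. Under other scalings 18 of the 22 gamma genes were negative with median-of-ratios and 19 of 22 with upper-quartile factors. Such factors shift all genes by a nearly common amount, so these counts are no separate support for the direction. None of the 22 was called by edgeR or DESeq2, 5 had an unadjusted p under 0.05 in edgeR, and the differences between subfamilies were not tested.

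Pcdhgb2, the most abundant B gene, stood at 32.0, 39.1 and 19.8 CPM in PHx, against 47.4, 46.1 and 42.1 CPM in Sham. Its libraries did not overlap, and its log2 fold change was -0.58 ± 0.23 (edgeR adjusted p = 0.371). Pcdhgb4 had the smallest adjusted p of the cluster, at 10.6, 15.4 and 8.60 CPM in PHx, against 18.3, 17.6 and 20.0 CPM in Sham, a log2 fold change of -0.69 ± 0.22 (edgeR adjusted p = 0.273). Pcdhgb6 averaged 18.5 ± 3.24 CPM in PHx and 22.8 ± 4.08 CPM in Sham, with overlapping groups. Pcdhgb1, Pcdhgb5 and Pcdhgb7 had log2 fold changes of -0.50, -0.64 and -0.13.

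Of the A genes, Pcdhga1, Pcdhga4, Pcdhga6 and Pcdhga12 had log2 fold changes of -0.71, -0.39, -0.48 and -0.36, and Pcdhga3 and Pcdhga5 lay near 0, at -0.05 and 0.0046. Pcdhgc3, the most abundant of all clustered genes, stood at 89.2, 105 and 92.3 CPM in PHx, against 97.0, 97.2 and 90.3 CPM in Sham. Its groups overlapped, with a log2 fold change of 0.0080 ± 0.10 (edgeR adjusted p = 0.984). It took 35.9%, 36.2% and 42.3% of the gamma counts in PHx, against 29.7%, 32.4% and 32.1% in Sham. This share was higher in every PHx library. The sinusoidal endothelial marker sum was lower in every PHx library, and its part in the gamma values was not tested. Relative to Cdh5 the gamma counts were 15.5%, 14.7% and 17.1% in PHx and 16.3%, 14.0% and 14.1% in Sham, overlapping between the groups.

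The beta cluster lay near 0. Of the 21 tested genes 8 were positive and 13 negative, a median log2 fold change of -0.09, and values between -0.52 and 0.62. Without PHx 4 the split was 13 positive to 8 negative, and without Sham 1 it was 12 to 9. The most abundant were Pcdhb14, at 17.02 ± 4.21 CPM in PHx and 19.0 ± 0.944 CPM in Sham, and Pcdhb17, at 14.6 ± 2.68 CPM in PHx and 16.4 ± 0.302 CPM in Sham (SD, n = 3 each). Pcdhb16, Pcdhb18 and Pcdhb20 had log2 fold changes of -0.06, -0.10 and 0.05. Pcdhb22 was the beta gene whose groups did not overlap, at 7.01, 8.44 and 7.04 CPM in PHx and 6.81, 5.26 and 5.77 CPM in Sham, and its log2 fold change was 0.33 ± 0.20 (edgeR adjusted p = 0.522).

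The 29 members that did not pass the filter comprised 14 alpha genes, 8 type II cadherins, Pcdhb1, Cdh15, Cdh16, Cdh17, Cdh26, Pcdh10 and Pcdh20. Of these, 12 had no count in any library: Cdh8, Cdh12, Cdh20 and 9 alpha genes. The others had between 0 and 39 counts per library. Pcdh20 had 12, 39 and 0 counts in PHx and 0, 5 and 0 counts in Sham, and Cdh19, a cadherin known from Schwann cells, had 4, 10 and 1 counts in PHx and 3, 22 and 9 counts in Sham. None of the 29 entered the test.

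Genes that work with cadherins were followed in a list of catenins, linkers to actin, phosphatases and proteases. None of the 31 was called by edgeR in either direction, 3 had an unadjusted p under 0.05, and the median log2 fold change was 0.03, the same as over all tested genes to 2 decimals. Arvcf, a catenin of the p120 family, stood at 190, 154 and 160 CPM in PHx, against 94.8, 86.1 and 59.2 CPM in Sham. Its groups did not overlap, its log2 fold change was 1.07 ± 0.19 with an edgeR adjusted p of 0.0532, and DESeq2 called it higher. Ctnnb1, beta-catenin, averaged 752 ± 52.7 CPM in PHx and 766 ± 10.9 CPM in Sham (SD, n = 3 each). Ctnna1, alpha-catenin, had a log2 fold change of -0.14 and Ptprb, the phosphatase VE-PTP that acts on the Cdh5 complex, one of -0.36 (edgeR adjusted p = 0.635 and 0.569).

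Other genes of the cadherin superfamily gave 1 call, higher in PHx, among 16 tested of 26 in the table. Of all tested genes 0.846% were called higher and 0.0158% lower. Fat1, a giant cadherin of the FAT family, stood at 45.9, 35.6 and 40.0 CPM in PHx, against 21.1, 25.4 and 21.7 CPM in Sham. It rose by 0.83 ± 0.14 on the log2 scale, with an edgeR adjusted p of 0.0457, just inside the threshold. With any 1 of the 6 libraries left out, Fat1 was no longer called. The list's median log2 fold change was 0.23, with 10 positive and 6 negative. Dchs1 and Fat4, a ligand and receptor pair of planar polarity, were more abundant per length, with log2 fold changes of -0.20 and -0.16. The desmosomal cadherin Dsg2 averaged 72.8 ± 21.8 CPM in PHx and 77.9 ± 24.5 CPM in Sham (SD, n = 3 each), and Dsg3, Dsc1 and Dsc3 had no count in any library.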

How the data were processed

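The deposited table holds, for each of 3 PHx and 3 Sham libraries, whole-number counts per gene and RPKM values, as the column names of the deposited file give them. Each deposited RPKM equalled the authors' count divided by gene length and by the summed counts of the library, within a relative 1e-06 in 100% of cases. Per the submitters' processing notes, bcl2fastq and TopHat2 2.0.13 were used with mm10; the counting program, annotation and use of strand are not given in the sources used here. Counts were scaled by TMM factors and tested with edgeR 4.0.16 (filterByExpr, glmQLFit, glmQLFTest, R 4.3.3) over 19033 of 48897 genes, with group as the only term and Benjamini-Hochberg adjustment at 0.05. The script was tested on simulated data. DESeq2 1.42.0, limma-voom (limma 3.58.1), other scaling factors, other filters, an adjusted p of 0.01, a replicate block and leaving out each library were tried as alternatives. RPKM served only to compare levels between genes.

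Genes were named if called, if they averaged at least 5 CPM, or if on a short list of known members; other members were given by class. The members and all gene lists were chosen with earlier results of these data known. Shared exons were taken from GENCODE M21, and promoter windows from RefSeq (GRCm38.p6), which held one for 22 of the 31 members outside chromosome 18. Intervals and floors cover counting error only. The Afdn row was matched through its RefSeq gene number to its older name, and Dchs2 was not matched.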

Additional observations from a re-analysis of the deposited data

How the results depend on the processing

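With 3 libraries a group, the number of calls moved with the fit. Over all genes edgeR called 161 higher and 3 lower in PHx; the counts were 359 and 30 without a low-count filter, 721 and 126 with DESeq2, 94 and 1 with limma-voom, 16 and 1 at an adjusted p under 0.01, and 0 to 160 and 0 to 9 with a library left out. Members called higher numbered 3 with no filter (Cdh11, Pcdh18 and Pcdh7), 2 among genes with at least 5 CPM in 3 libraries (Cdh11 and Pcdh18), 4 with DESeq2, 0 with limma-voom, 0 at an adjusted p under 0.01, and 0 to 1 with a library left out, the 1 being Cdh11 without PHx 4. DESeq2 called 1 member lower, Pcdh12. Of the partner genes, 1 was called higher (Arvcf) with no filter, among genes with at least 5 CPM and with DESeq2. Of the other superfamily genes, 2 were called higher (Clstn2 and Fat1) with no filter and with DESeq2, 0 with upper-quartile factors, with limma-voom and at an adjusted p under 0.01, and 0 to 1 with a library left out, the 1 being Clstn2 without PHx 4. The causes were not tested.

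Deviations from the group means of libraries with 1 number in common correlated at -0.09, -0.23 and 0.03. For libraries with different numbers the correlations lay between -0.38 and 0.47. With 3 libraries a group, these values cannot settle whether the numbers pair the samples. With the replicate block, 14 genes were called higher and 1 lower, with 0 members and 0 other superfamily genes among them, and Cdh11 had a log2 fold change of 2.81 (edgeR adjusted p = 0.156).

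Fold changes under each alternative were computed for the genes named by the rule, not for every tested member. Among these, the genes below changed sign under at least 1 alternative, and none of them was called by edgeR with all libraries. Pcdhga5 stood at -0.0012 with median-of-ratios factors, -0.027 with upper-quartile factors, -0.024 with no filter and -0.0011 with DESeq2, and Pcdhgc3 at -0.025 with upper-quartile factors and -0.021 with no filter. With a library left out, log2 fold changes ran from -0.47 to 0.032 for Cdh1, -0.33 to 0.12 for Cdh13, -0.034 to 0.38 for Cdh4, -0.20 to 3.23 for Pcdh19, -0.30 to 0.034 for Pcdhb14, -0.38 to 0.18 for Pcdhb16, -0.26 to 0.074 for Pcdhb18, -0.093 to 0.21 for Pcdhb20, -0.29 to 0.12 for Pcdhga3, -0.24 to 0.17 for Pcdhga5, -0.34 to 0.066 for Pcdhgb7 and -0.071 to 0.046 for Pcdhgc3.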
